A study of Macaca mulatta with 6 samples.

Results

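Molecular chaperones of the HSP, DNAJ and CCT families were followed in RF/6A, a choroidal endothelial cell line from rhesus macaque. The members are the 71 genes, of 24941 gene symbols in the deposited table, whose symbol belongs to the HSPA, HSPB, HSPD1, HSPE1, HSPH1 or HSP90 names, to the DNAJA, DNAJB or DNAJC names, to CCT2 to CCT8, or is TCP1. The rule reads gene names and no measured value, but the families were picked with earlier results of these data known. The 71 genes are represented by 136 transcripts. The cells grew on Transwell inserts and were exposed for 4 hours to human serum at 50%. The 3 control libraries received heat-inactivated serum, in which complement does not act, and the 3 normal serum libraries received serum whose complement can assemble the membrane attack complex. The question of the design is how these cells answer active complement. Heating serum alters more than complement, so complement and any other heat-labile serum factor cannot be told apart here. Both groups were bathed in serum of another species. The labels do not say that the libraries came from separate cultures, so the tests weigh differences against a library-to-library spread that may be only technical.

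Chaperones bind unfolded or newly made proteins and help them reach or keep their fold. Hsp70 proteins bind short hydrophobic stretches in a cycle driven by ATP: J proteins (DNAJ) deliver clients and trigger ATP hydrolysis, and nucleotide exchange factors such as the Hsp110 proteins reset the cycle. Hsp90 acts later, on kinases, hormone receptors and other nearly folded clients, small heat shock proteins hold unfolded chains without ATP, and the chaperonins HSPD1 with HSPE1 (mitochondria) and CCT (cytosol) enclose chains in a cavity. Each compartment has its own set, and the heat shock factor HSF1 and the unfolded protein response are the textbook inducers of the cytosolic and the endoplasmic reticulum sets.

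Levels are FPKM (fragments scaled by transcript length and by the library's mapped fragments), summed over the transcripts of a symbol. Between 11589 and 11838 genes reached 1 FPKM in a library. Differences were tested with limma on log2(FPKM + 1) over the 11819 genes that averaged 1 FPKM or more, and a gene is called higher or lower where its p, adjusted by Benjamini-Hochberg over all of them, was under 0.05. A fold is the mean FPKM in normal serum over that in the controls, an error is the SD of 3 libraries unless a standard error (SE) is named, and log2 values are fitted differences, normal minus heat-inactivated serum. The first principal component of all genes, with 61.0% of the variance, separated the treatments, and the second, with 13.3%, set the replicate 1 library of both groups apart from the other 4. Total FPKM was 852828 to 1007950 in the controls and 980877 to 1016470 in normal serum. Of 11 endothelial markers found, 4 were expressed enough to be tested and all 4 were higher. The markers summed to 73.8 to 75.8 FPKM in the controls and 97.9 to 104 FPKM in normal serum. Most of that sum was ENG, with means of 61.2 and 74.2 FPKM. Among the markers too low to test, every normal serum library was above every control for VWF (means 0.172 and 1.05 FPKM). For KDR every one was below (0.370 and 0.105 FPKM), and the others overlapped. CDH5, the cadherin that defines endothelium, was at 0 in the controls. The 10 mural and fibroblast markers summed to 6882 to 7416 FPKM in the controls and 3392 to 3562 FPKM in normal serum, with 2 higher and 8 lower, and their part in the chaperone results was not tested. Of 6 leukocyte and blood markers 1 could be tested, their sum never passed 1.64 FPKM, and HBA2, HBB and ALAS2 were at 0. In RNA of whole cultures, fewer cells and less RNA per cell cannot be told apart.

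Of the 71 members, 57 were expressed at a mean of at least 1 FPKM and were tested. In normal serum 27 of them were higher and 9 were lower, and 21 did not pass the test. Over all genes tested, 27.8% were called higher and 26.1% lower, 54.0% in all. These shares are also the background for the counts of each group below. The median log2 difference of the tested members was 0.27, against 0.01 for all genes tested. In 29 members every normal serum library lay above every control, against 32.1% of all genes, and in 11 every one lay below, against 30.5%. Most differences were moderate: 3 members, HSPA1B, HSPH1 and HSPB8, changed by at least 1 on the log2 scale, a size that 6.03% of all genes reached with a call. An increase of at least 0.5 was called for 17 members and for 13.7% of all genes.

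The scaling of the libraries bears on these counts. Rescaling all libraries to the same total FPKM moved the median of all genes to a log2 difference of -0.12 and left 21 members higher and 11 lower, and the same rescaling over transcripts of at least 300 bases moved it to -0.14 and left 21 higher and 12 lower. Among member calls the share called higher went from 75% to 65.6% and 63.6%, and among all calls from 51.6% to 34.7% and 33.0%. The member median stayed above the all-gene median by 0.26, 0.25 and 0.25. Without the normal serum 2 library 23 members were higher and 10 lower.

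**Figure D1:**
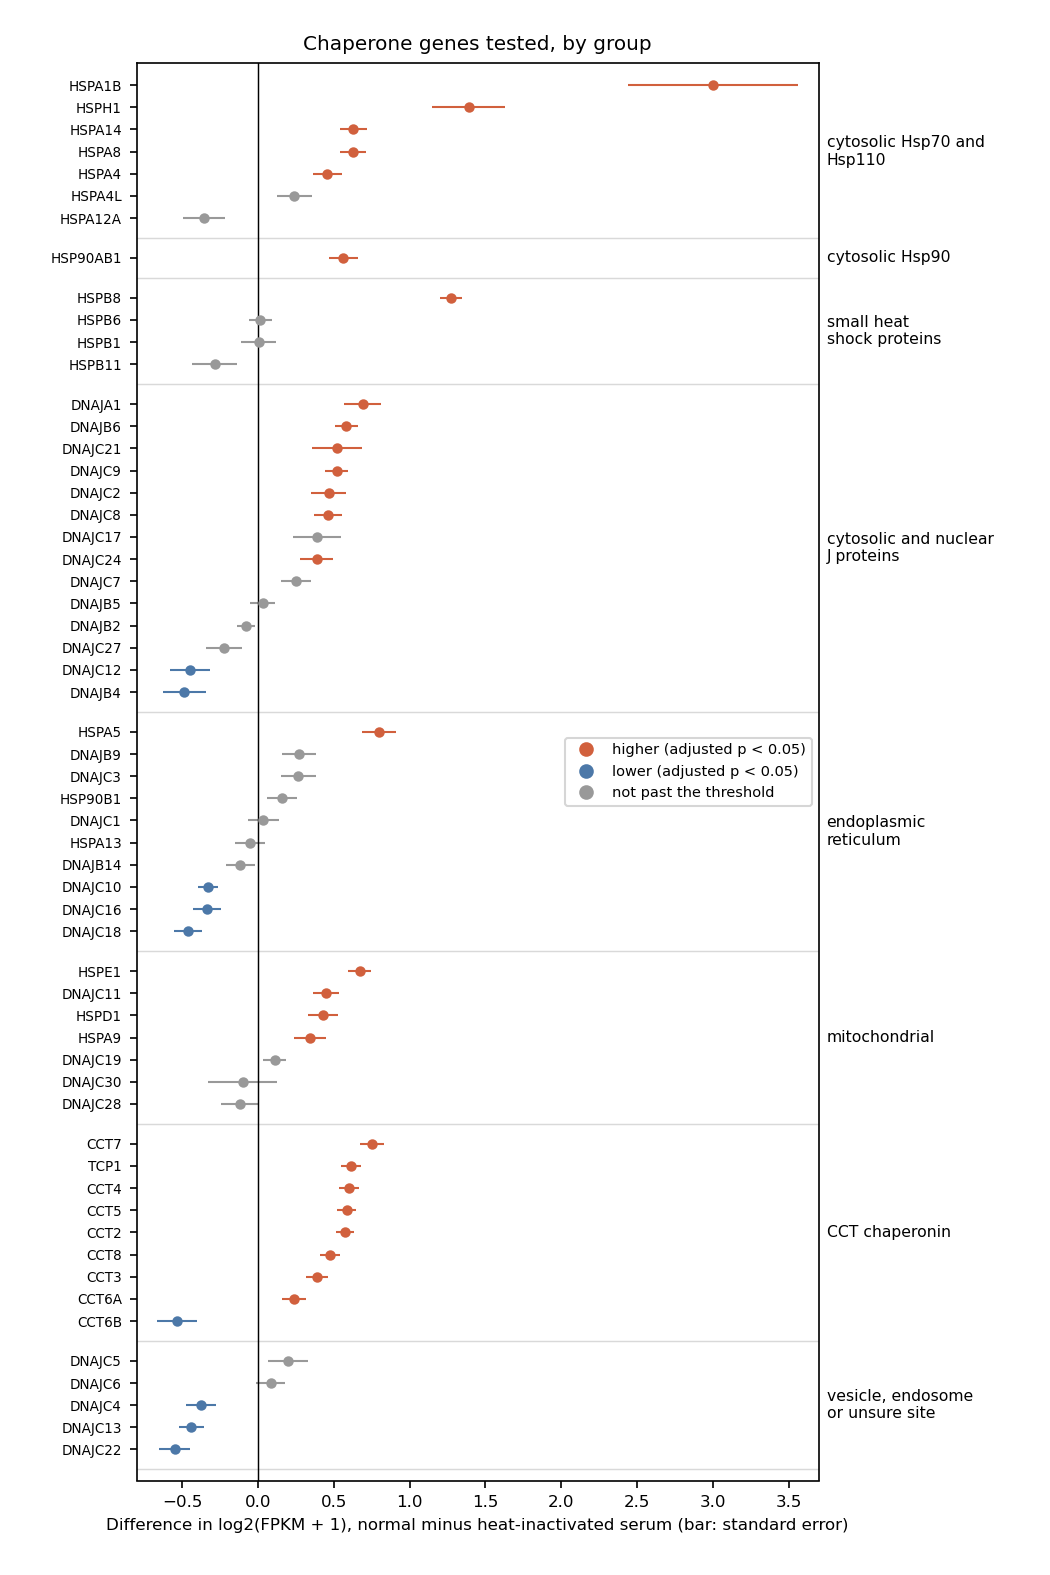
Fitted difference in log2(FPKM + 1), normal minus heat-inactivated serum, for the 57 chaperone genes tested, by group; points are estimates, bars are standard errors, and colour marks genes called higher, lower or neither at an adjusted p of 0.05. HSPA1B lies far to the right of all others at 3.00, 8 of 9 chaperonin genes lie to the right of 0, and the lower genes are J proteins except CCT6B.

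Most of the tested cytosolic Hsp70 and Hsp110 genes rose. Of 9 members 7 were tested, 5 were higher and none was lower, with a median log2 difference of 0.63. Of the higher genes, HSPA8, HSPA1B and HSPA4 averaged at least 50 FPKM, where 47.5% of all genes were called higher. HSPH1 and HSPA14 averaged between 10 and 50 FPKM, where 31.5% were. The summed level of the group was 947 ± 58.3 FPKM in the controls and 1738 ± 416 FPKM in normal serum (n = 3 each). Its share of all member FPKM went from 15.6 ± 0.187% to 19.7 ± 2.69%. HSPA1B alone, with means of 28.4 ± 1.22 and 305 ± 261 FPKM, is a large part of this rise and its spread.

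HSPA1B, the classic stress-inducible Hsp70 (3 transcripts, chromosome 4), stood at 29.3, 27.0 and 28.8 FPKM in the controls and at 95.9, 598 and 222 FPKM in normal serum. The groups did not overlap, but the normal serum libraries spanned 6.24-fold from lowest to highest, against 1.09-fold in the controls. The ratio of means was 10.8-fold, and 5.61-fold without the normal serum 2 library, which held the highest value. The log2 difference was 3.00 (SE 0.56, adjusted p = 0.00332), and 2.32 without that library (adjusted p = 0.00167). HSPA1A, a nearly identical neighbour, is not listed under that symbol in the table used here, so the HSPA1B values may include reads of HSPA1A. HSPA1L, the relative from the same cluster, lay between 0.325 and 0.604 FPKM in 5 libraries and at 1.13 FPKM in normal serum 2.

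HSPH1, an Hsp110 that exchanges nucleotide on Hsp70, gave 17.9, 20.5 and 19.9 FPKM in the controls and 36.4, 78.7 and 50.1 FPKM in normal serum. The order of the normal serum libraries was that of HSPA1B, with library 2 highest and library 1 lowest. The means were 2.84-fold apart (log2 1.39, SE 0.24, adjusted p = 0.00239), or 2.23-fold without normal serum 2. One of its transcripts, 3412 bases long, held 2.21% to 5.43% of HSPH1 FPKM in the controls and 12.8% to 17.4% in normal serum, while the longest and most abundant one, of 3604 bases, went from 65.6% to 72.1% in the controls to 49.9% to 70.6%. Another, of only 348 bases, held 22.5% to 32.2% in the controls and 14.3%, 31.2% and 23.4% in normal serum. Its 5.21, 24.6 and 11.7 FPKM in normal serum are part of the HSPH1 values and their spread. These shares of isoforms, some of them similar, are the authors' estimates and were not tested.

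HSPA8, the constitutive Hsc70 (chromosome 14), was the most abundant member over the 6 libraries. It measured 767, 836 and 866 FPKM in the controls and 1162, 1412 and 1249 FPKM in normal serum, so every treated value was above every control (1.55-fold, log2 0.63, SE 0.09, adjusted p = 8.3e-04). HSPA14, an Hsp70 that works at the ribosome, rose to a like degree from a far lower level, with 12.0, 13.2 and 14.0 FPKM against 19.1, 22.7 and 20.5 FPKM (1.59-fold, adjusted p = 8.46e-04). HSPA4, another Hsp110 relative, gave 46.6, 53.1 and 57.9 FPKM against 65.7, 76.7 and 74.9 FPKM (log2 0.46, adjusted p = 0.0058). The 2 tested members that were not called were low: HSPA4L averaged 4.03 and 4.92 FPKM (log2 0.24, adjusted p = 0.113), and HSPA12A, an atypical Hsp70, 6.06 and 4.57 FPKM (log2 -0.36, adjusted p = 0.063). Both passed the threshold in some alternative analyses, HSPA4L upward without control library 3 (adjusted p = 0.0328) or with quantile normalization (0.031), and HSPA12A downward without normal serum 3 (0.0136), with rescaled totals (0.0384) or with rescaling over transcripts of at least 300 bases (0.0242).

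HSP90AB1, the constitutive cytosolic Hsp90 (6 transcripts, chromosome 4), is the only cytosolic Hsp90 member. Its controls were at 559, 649 and 667 FPKM and its normal serum libraries at 839, 1003 and 930 FPKM, without overlap. The difference was 1.48-fold (log2 0.56, SE 0.09, adjusted p = 0.00193). The inducible HSP90AA1 is not listed under that symbol, but a gene listed as HSPCA, its former symbol, is in the table and lies outside the rule. HSPCA, named after its values were seen, measured 266, 308 and 316 FPKM in the controls and 456, 566 and 495 FPKM in normal serum (1.70-fold, log2 0.76, adjusted p = 6.39e-04).

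The small heat shock proteins did not move together. Of 6 members 4 were tested, 1 was higher and none was lower, with a median log2 difference of 0.01. HSPB8, which works with BAG3 to route misfolded proteins to autophagy (chromosome 11), had 17.5, 16.3 and 15.3 FPKM in the controls and 42.0, 42.2 and 38.7 FPKM in normal serum. Both groups were tight and far apart, at 2.50-fold (log2 1.27, SE 0.07), and its adjusted p of 1.73e-05 was the smallest of any member. Its normal serum libraries did not show the spread of HSPA1B.

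HSPB1 (Hsp27), by far the most abundant small heat shock protein gene, was 896, 852 and 818 FPKM in the controls and 932, 958 and 708 FPKM in normal serum. The groups overlapped and the means were 1.01-fold apart (log2 0.01, SE 0.12, adjusted p = 0.969). The sign of this small difference turned with each scaling alternative, to -0.14 and -0.17 with the rescaled totals and -0.20 with quantile normalization, without passing the threshold. HSPB6, best known from muscle, gave 6.91, 6.46 and 6.87 FPKM against 7.38, 6.68 and 6.48 FPKM (log2 0.02, adjusted p = 0.874, and -0.11 and -0.13 with the rescaled totals). HSPB11, a subunit of the intraflagellar transport machinery, gave 8.03, 8.47 and 8.85 FPKM against 6.09, 8.92 and 5.64 FPKM (log2 -0.28, adjusted p = 0.147, but 0.00724 without normal serum 2, and 0.0428 and 0.0325 with the rescaled totals). Since HSPB1 makes up most of the group, the share of the small heat shock proteins in all member FPKM was 14.7% in the controls and 10.6% in normal serum.

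**Figure D2:**
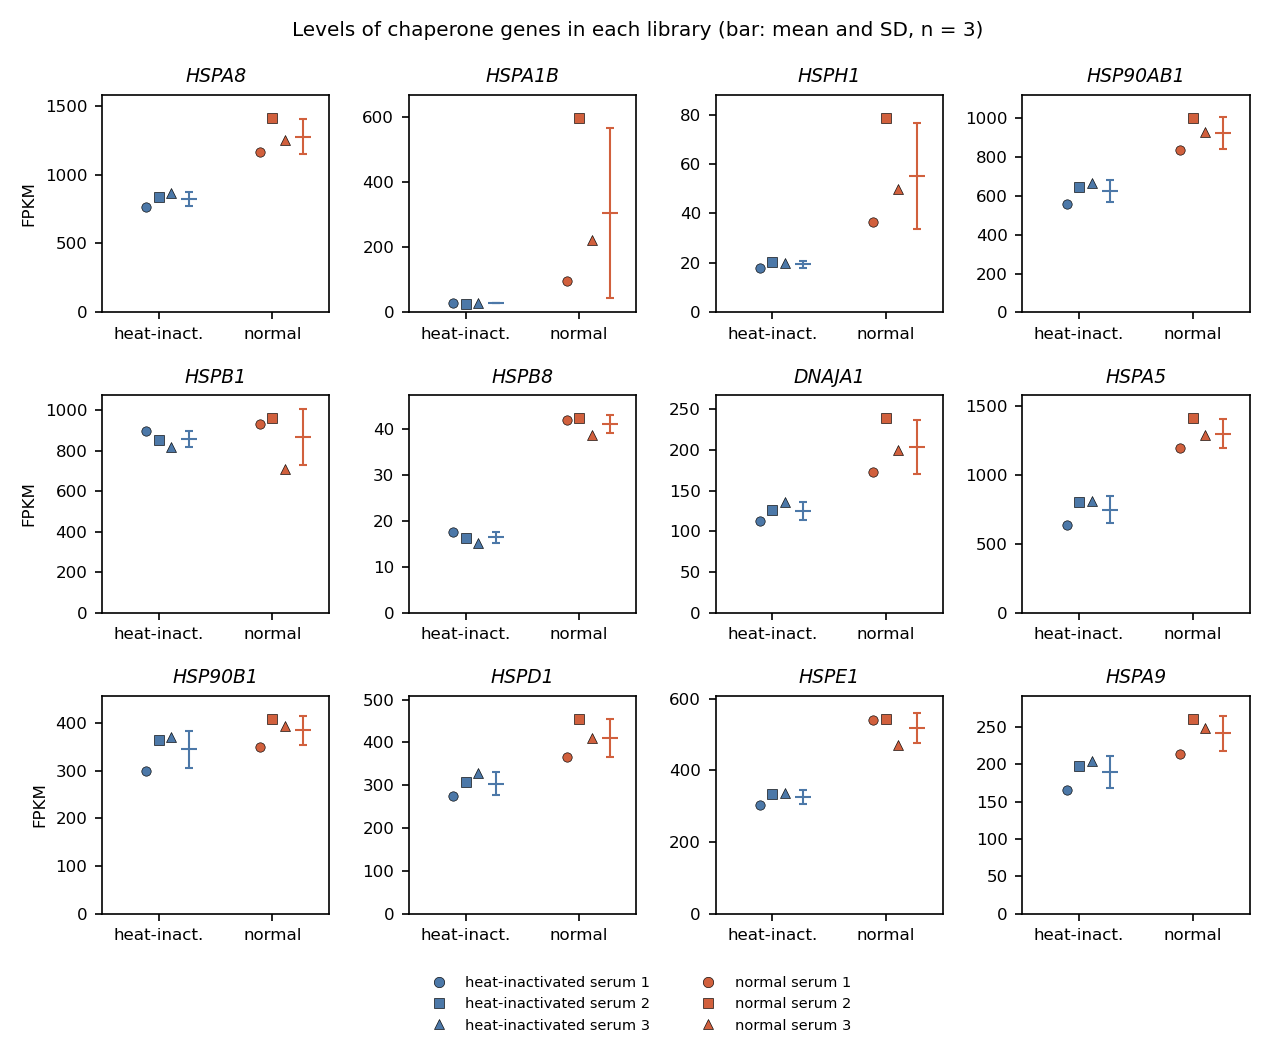
FPKM of 12 chaperone genes in each of the 6 libraries (marker shape is the replicate number; horizontal bar and whisker are mean and SD, n = 3). Normal serum values lie above all controls in every panel except HSPB1 and HSP90B1, whose groups overlap, and HSPA1B and HSPH1 show the widest spread in normal serum.

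The cytosolic and nuclear J proteins comprised 20 members, of which 14 were tested, 7 were higher and 2 lower (median log2 difference 0.39). DNAJA1, the main J partner of cytosolic Hsp70, was the most abundant and rose most. It gave 113, 126 and 136 FPKM in the controls and 172, 238 and 199 FPKM in normal serum, again with library 2 highest and library 1 lowest. The difference was 1.63-fold (log2 0.69, SE 0.12, adjusted p = 0.0027), or 1.49-fold without normal serum 2. DNAJB6, which keeps aggregation-prone proteins soluble, had 24.5, 20.7 and 21.5 FPKM against 35.1, 32.6 and 33.6 FPKM (1.52-fold, log2 0.58, adjusted p = 6.8e-04). DNAJC9, a J protein that handles histones, had 17.9, 21.3 and 20.3 FPKM against 28.0, 29.9 and 28.6 FPKM (log2 0.52, adjusted p = 0.00117).

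The other 4 higher genes of this group have different tasks. DNAJC8, found with splicing factors, gave 28.2, 31.4 and 31.7 FPKM against 39.6, 47.9 and 39.8 FPKM (log2 0.46, adjusted p = 0.00426). DNAJC2, the ribosome-bound J protein that is paired with HSPA14, went from 18.1 ± 2.63 to 25.2 ± 2.14 FPKM (log2 0.47, adjusted p = 0.0115). DNAJC21, needed for large ribosomal subunit maturation, gave 9.67, 14.3 and 14.5 FPKM against 15.8, 19.7 and 20.6 FPKM (log2 0.52, adjusted p = 0.0289). Normal serum 1 was thus close to the upper 2 controls, and the DNAJC21 call was lost without normal serum 2 (adjusted p = 0.0801) and without normal serum 3 (0.0918). DNAJC24, a J protein of diphthamide synthesis, went from 6.93 ± 0.535 to 9.42 ± 1.31 FPKM (log2 0.39, adjusted p = 0.0182), a call lost without control 1 (0.0556) or normal serum 2 (0.0534). Rescaling over transcripts of at least 300 bases also ended the calls of DNAJC2 (adjusted p = 0.064), DNAJC21 (0.104) and DNAJC24 (0.102). Rescaling to the same total FPKM ended those of DNAJC21 (adjusted p = 0.0564) and DNAJC24 (0.104). DNAJC21 was also lost with no filter on low values (0.0541), and DNAJC24 with a length trend removed (0.0504).

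Other J proteins of this group did not pass the test. DNAJC7, a scaffold between Hsp70 and Hsp90, had 50.4, 59.8 and 62.3 FPKM against 62.6, 74.5 and 68.4 FPKM. The groups did not overlap, but by a margin of less than 1 FPKM, and the adjusted p was 0.0645 (log2 0.25; 0.0432 without normal serum 1, and 0.00726 with a term for replicate 1). DNAJC17, another splicing-related J protein, averaged 26.5 ± 4.79 and 35.0 ± 5.57 FPKM (log2 0.39, adjusted p = 0.0728, and 0.027 without normal serum 1). With a term that sets the replicate 1 libraries of both groups apart, DNAJC17 was called higher (adjusted p = 0.00113). DNAJB2 had 37.8, 35.4 and 35.3 FPKM against 34.2, 34.9 and 33.4 FPKM (log2 -0.08, adjusted p = 0.291), but it was called lower with rescaling over transcripts of at least 300 bases (log2 -0.25, adjusted p = 0.00947). Quantile normalization gave DNAJB2 a log2 difference of -0.21 and a call as well (adjusted p = 0.0192). DNAJB5 (log2 0.03, adjusted p = 0.767; -0.10 and -0.12 with the rescaled totals) and DNAJC27 (log2 -0.22, adjusted p = 0.154) were low.

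The 2 lower J proteins of the cytosol were both low in level. DNAJB4, an Hsp70 partner of the DNAJB1 type, gave 3.97, 3.53 and 3.00 FPKM in the controls and 2.28, 2.68 and 1.73 FPKM in normal serum (log2 -0.48, adjusted p = 0.0227). DNAJC12, a partner of aromatic amino acid hydroxylases, gave 2.15, 1.53 and 2.17 FPKM against 1.06, 1.23 and 1.17 FPKM (log2 -0.45, adjusted p = 0.0223). Neither group overlapped, but both calls depend on single libraries: DNAJB4 was lost without control 1 (adjusted p = 0.0721), control 2 (0.0613) or normal serum 3 (0.0598), and DNAJC12 without control 1 (0.0716), control 3 (0.0759) or normal serum 1 (0.0603). Quantile normalization and replicates 2 and 3 alone also ended both calls (adjusted p = 0.096 and 0.108 for DNAJB4, 0.0804 and 0.137 for DNAJC12).

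In the endoplasmic reticulum the members went different ways. Of 11 members 10 were tested, 1 was higher and 3 were lower, with a median log2 difference of -0.01, whose sign changed with the setting. HSPA5 (BiP), the Hsp70 of this compartment (chromosome 15), was the member that rose: 637, 803 and 810 FPKM in the controls and 1198, 1410 and 1293 FPKM in normal serum. The lowest treated value lay well above the highest control (1.73-fold, log2 0.80, SE 0.11, adjusted p = 7.7e-04). HSP90B1 (GRP94), the Hsp90 of the same compartment, gave 300.3, 365 and 370 FPKM against 351, 409 and 395 FPKM. These groups overlapped and the difference did not pass the test (1.11-fold, log2 0.16, SE 0.10, adjusted p = 0.213). When the model also allowed for replicate 1 being set apart, since those libraries were low for this gene in both groups, the adjusted p of HSP90B1 was 0.0202, while quantile normalization turned the sign (log2 -0.09), as did rescaling over transcripts of at least 300 bases (-0.01).

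Of the 7 J proteins of the endoplasmic reticulum tested, none was higher and 3 were lower. All but DNAJC10 averaged under 50 FPKM. Of all genes at 10 to 50 FPKM 31.5% were called higher and 25.0% lower. At 1 to 10 FPKM these shares were 15.5% and 32.4%. The difference of so few genes from those shares was not tested. DNAJC10 (ERdj5), a disulfide reductase that assists the degradation of misfolded proteins, had 57.7, 57.3 and 62.9 FPKM in the controls and 44.6, 47.3 and 48.9 FPKM in normal serum. All treated values lay below all controls (log2 -0.33, SE 0.07, adjusted p = 0.00439). DNAJC18 gave 11.6, 12.1 and 12.0 FPKM against 7.93, 7.60 and 9.70 FPKM (log2 -0.46, adjusted p = 0.00505). DNAJC16 gave 2.78, 2.94 and 2.74 FPKM against 1.97, 2.08 and 2.04 FPKM (log2 -0.33, adjusted p = 0.0173, and 0.0583 without control 2, 0.104 with quantile normalization and 0.081 with replicates 2 and 3 alone). DNAJB9 (ERdj4) and DNAJC3 (p58IPK), both textbook targets of the unfolded protein response, averaged 15.7 and 19.1 FPKM and 10.6 and 13.0 FPKM, each with a log2 difference of 0.27 (adjusted p = 0.0738 and 0.0838). DNAJB9 passed without control 1 (adjusted p = 0.00963), and DNAJC3 without control 2 (0.0373) or normal serum 1 (0.0497). Both were called higher when the replicate 1 libraries were given a term of their own (adjusted p = 0.0188 and 0.0195). The count of none higher thus holds only where all 6 libraries were fitted without a replicate term. HSPA13, a small Hsp70 relative of this compartment, had 25.0, 19.4 and 21.7 FPKM against 22.7, 20.2 and 20.4 FPKM, with overlap. HSPA13, DNAJC1 and DNAJB14 had log2 differences of -0.05, 0.04 and -0.12 and were not called, and rescaling turned the sign of DNAJC1 to -0.10 and -0.13.

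In mitochondria 8 members were found and 7 tested, of which 4 were higher and none lower (median log2 difference 0.35). Of the higher genes, HSPE1, HSPD1 and HSPA9 averaged at least 50 FPKM, where 47.5% of all genes were called higher. DNAJC11 averaged between 10 and 50 FPKM, where 31.5% were. HSPD1 (Hsp60) and HSPE1 (Hsp10) form the barrel and the lid of the mitochondrial chaperonin, and both genes lie on chromosome 12. HSPE1 gave 303, 334 and 338 FPKM in the controls and 541, 544 and 471 FPKM in normal serum (1.60-fold, log2 0.67, SE 0.08, adjusted p = 3.83e-04). HSPD1 gave 274, 308 and 328 FPKM against 367, 455 and 409 FPKM (1.35-fold, log2 0.43, SE 0.10, adjusted p = 0.00816). Neither gene's groups overlapped, and HSPD1 missed the threshold with rescaling over transcripts of at least 300 bases (adjusted p = 0.0542).

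HSPA9 (mortalin), the Hsp70 of the matrix and of the import motor, had 166, 198 and 205 FPKM against 214, 261 and 249 FPKM. The treated values were all higher, by 1.27-fold (log2 0.35, SE 0.10, adjusted p = 0.0257), but normal serum 1 was only slightly above control 3. The call was lost without control 1 (adjusted p = 0.0623), normal serum 2 (0.0821) or normal serum 3 (0.0753), with both rescalings (0.144 and 0.197) and with quantile normalization (0.597). DNAJC11, which is linked to cristae organisation, had 17.0, 20.4 and 18.0 FPKM against 23.4, 26.5 and 26.7 FPKM (log2 0.45, adjusted p = 0.00406; 0.0553 with rescaled totals). DNAJC19, the J protein of the import motor, had 57.7, 56.7 and 56.7 FPKM against 59.8, 68.9 and 57.1 FPKM (log2 0.11, adjusted p = 0.26, and -0.03 and -0.06 with the rescaled totals). DNAJC30 and DNAJC28 (log2 -0.10 and -0.12, adjusted p = 0.736 and 0.454) were not called.

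The CCT chaperonin is a double ring of 8 different subunits that folds actin, tubulin and many other proteins, and its 8 expressed subunit genes all rose. With CCT6B, the testis-type copy of the sixth subunit, 9 members were tested, 8 were higher and 1 was lower (median log2 difference 0.58). The 8 higher genes all averaged at least 50 FPKM. At that level 47.5% of all genes were called higher and 14.7% lower, with a median log2 difference of 0.20. The summed level was 1022 ± 45.3 FPKM in the controls and 1494 ± 79.4 FPKM in normal serum. CCT7 rose most, from 149, 175 and 169 FPKM to 267, 298 and 270 FPKM (1.69-fold, log2 0.75, adjusted p = 2.43e-04). CCT2 gave 173, 185 and 183 FPKM against 266, 281 and 262 FPKM (1.49-fold, adjusted p = 1.88e-04). By the table the 8 genes lie on chromosomes 1, 3, 4, 6, 11 and 13.

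TCP1, the founding subunit, had 69.2, 68.6 and 74.9 FPKM against 106, 115 and 106 FPKM (1.54-fold). CCT4 had 104, 99.3 and 110 FPKM against 160, 167 and 149 FPKM (1.52-fold), and CCT5 had 89.9, 96.7 and 97.6 FPKM against 140, 150 and 138 FPKM (1.51-fold). These 3 genes thus moved by nearly the same factor, with adjusted p of 2.24e-04, 3.27e-04 and 2.55e-04. CCT8 followed with 140, 145 and 154 FPKM against 199, 219 and 195 FPKM (1.40-fold, adjusted p = 9.01e-04). CCT3 had 179, 198 and 193 FPKM against 235, 269 and 245 FPKM (1.31-fold, adjusted p = 0.00311; 0.0618 with rescaled totals and 0.19 with quantile normalization).

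CCT6A showed the smallest rise, from 63.8, 70.4 and 71.9 FPKM to 74.2, 86.5 and 83.0 FPKM (1.18-fold, log2 0.24, adjusted p = 0.0361). Its groups were separate but close, and the call was lost without any one of control 1 (adjusted p = 0.0992), control 2 (0.0657), control 3 (0.0514), normal serum 2 (0.117) and normal serum 3 (0.0946), and with each scaling alternative (0.447 to 0.654). CCT6B fell from 1.71, 1.51 and 1.80 FPKM to 0.651, 1.04 and 0.876 FPKM (log2 -0.53, adjusted p = 0.0109), at the edge of the levels tested, and with replicates 2 and 3 alone its adjusted p was 0.0733.

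Because the subunits sit in the ring in equal number, their shares of the summed FPKM were also set side by side. CCT3 had the highest level of the 8 in all 3 controls and CCT7 in all 3 normal serum libraries. CCT7 made up 16.1 ± 0.730% of the sum in the controls and 18.6 ± 0.186% in normal serum. CCT3 made up 18.6 ± 0.384% and 16.7 ± 0.425%, and CCT6A 6.73 ± 0.125% and 5.44 ± 0.303%. The remaining shares moved less, for example from 14.4% to 13.7% for CCT8 and from 6.95% to 7.31% for TCP1. The highest subunit exceeded the lowest by 2.69 to 2.89 times in the controls and by 3.25 to 3.59 times in normal serum. Levels differ between genes in how well each gene model matches its transcripts, so these shares describe the table and not the protein complex, and they were not tested.

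**Figure D3:**
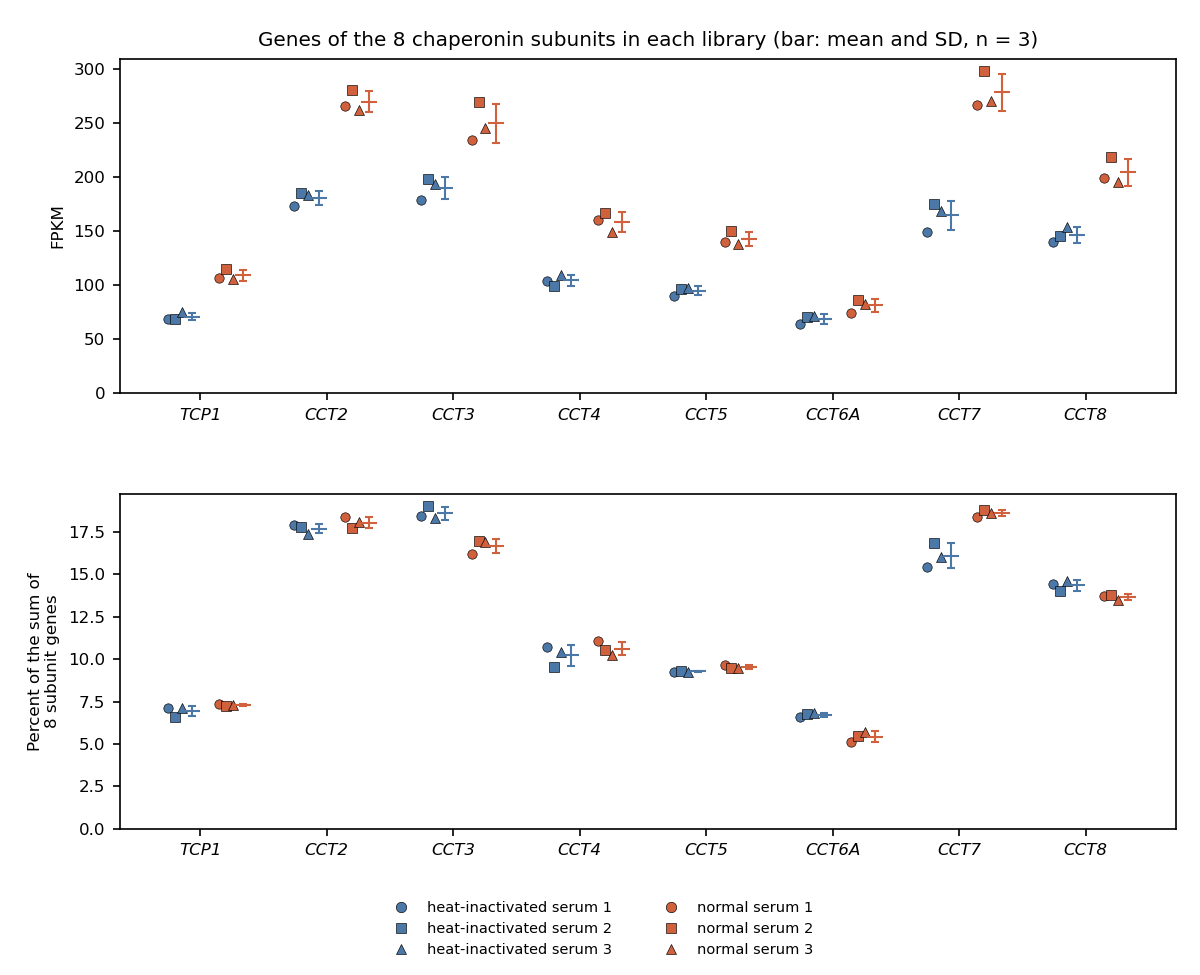
Upper panel, FPKM of the 8 chaperonin subunit genes in each library; lower panel, each gene's percent of the sum of the 8 (marker shape is the replicate number; bar and whisker are mean and SD, n = 3). All 8 genes lie higher in normal serum, CCT7 takes a larger share there and CCT3 and CCT6A a smaller one.

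The J proteins of vesicles, endosomes or unsure site contained no higher gene. Of 7 members 5 were tested and 3 were lower, with a median log2 difference of -0.38. All 5 averaged under 50 FPKM. Of all genes 25.0% were called lower at 10 to 50 FPKM and 32.4% at 1 to 10 FPKM. The difference of so few genes from those shares was not tested. DNAJC13 (RME-8), which acts in endosomal sorting, had 13.5, 12.4 and 14.1 FPKM against 8.72, 9.68 and 10.4 FPKM (log2 -0.44, SE 0.08, adjusted p = 0.0037). DNAJC4 had 23.4, 21.0 and 23.2 FPKM against 19.3, 17.2 and 15.1 FPKM (log2 -0.38, adjusted p = 0.0134, and 0.072 with the highest transcript per gene), and DNAJC22 had 3.42, 2.84 and 2.96 FPKM against 1.92, 1.75 and 1.67 FPKM (log2 -0.55, adjusted p = 0.00351). All 3 had separate groups, with every treated library lower. DNAJC5, the cysteine string protein of secretory vesicles, overlapped between groups with 25.1, 25.3 and 20.4 FPKM against 22.5, 29.4 and 30.2 FPKM (log2 0.20, adjusted p = 0.231; 0.0398 without normal serum 1). DNAJC6 (auxilin), which uncoats clathrin vesicles, was low and not called (log2 0.08, adjusted p = 0.486; -0.01 and -0.03 with the rescaled totals).

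The members were also counted across compartments. Of 40 J proteins 30 were tested, 8 were higher and 8 lower, with a median log2 difference of 0.06, shares close to the 27.8% and 26.1% of all genes. Of the 31 other members 27 were tested, 19 were higher and 1, CCT6B, was lower, with a median of 0.48. The J proteins were also lower in level, with a median of 16.6 FPKM over genes against 132 FPKM for the others, and level moved with the calls. At a mean of at least 50 FPKM 17 of 22 members were higher and 1 lower, against 47.5% and 14.7% of all genes at that level. From 10 to 50 FPKM 9 of 20 were higher and 3 lower, against 31.5% and 25.0%. From 1 to 10 FPKM 1 of 15 was higher and 5 lower, against 15.5% and 32.4%. The difference between J proteins and other members was not tested, and their levels differ. All cytosolic groups without CCT (26 tested genes) had 14 higher, 2 lower and a median of 0.42.

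**Figure D4:**
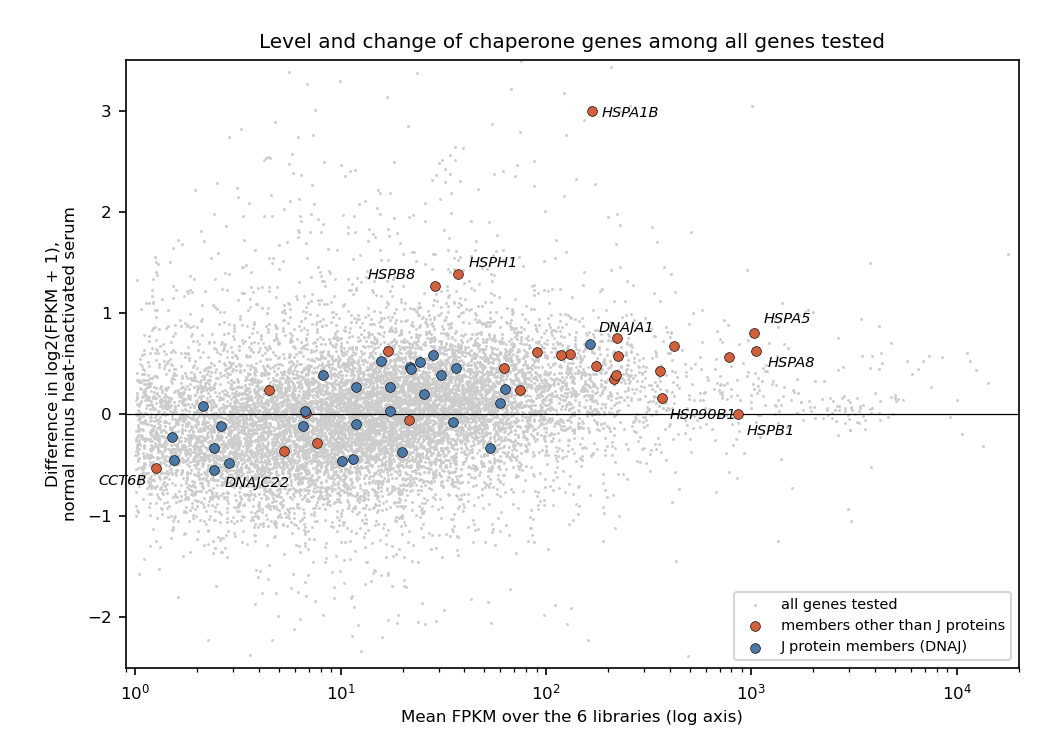
Mean FPKM over the 6 libraries (log axis) against the difference in log2(FPKM + 1), normal minus heat-inactivated serum, for all 11819 genes tested (grey) and the chaperone members (colours: J proteins and others); 32 genes lie outside the plotted range of -2.5 to 3.5. Abundant members lie mostly above 0, with HSPB1 on the line, and low J proteins mostly below it.

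In summed FPKM, all members together came to 6065 ± 349 in the controls and 8738 ± 891 in normal serum, 1.44-fold. That was 0.626% to 0.716% of the total FPKM of a control library and 0.799% to 0.959% of a normal serum library. The endoplasmic reticulum group summed to 1242 ± 136 and 1820 ± 137 FPKM, the mitochondrial group to 909 ± 65.0 and 1272 ± 81.7 FPKM, and the cytosolic and nuclear J proteins to 369 ± 27.5 and 511 ± 54.8 FPKM. HSPA5 carries most of the rise of the first sum, whose median gene did not rise. The 6 most abundant members (HSPA8, HSPA5, HSPB1, HSP90AB1, HSPE1 and HSP90B1) held 58.8% to 62.2% of member FPKM in every library.

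Ratios within a library do not depend on its scaling, and 4 were compared by an exact two-sided permutation test, whose smallest possible p with 3 against 3 libraries is 0.1. In each of the 4 the groups did not overlap, so the exact permutation test gave 0.1 for each, also after adjustment over the 4, and none can pass the threshold. HSPA1B to HSPA8 was 0.0382, 0.0323 and 0.0332 in the controls and 0.0825, 0.423 and 0.178 in normal serum. HSP90B1 to HSPA5 was 0.471, 0.455 and 0.457 against 0.293, 0.290 and 0.305, a fall with little spread (log2 -0.64). HSPD1 to HSPE1 was 0.904, 0.923 and 0.972 against 0.678, 0.836 and 0.869 (log2 -0.24). HSPCA to HSP90AB1, a ratio added after the values were seen, was 0.476, 0.475 and 0.475 against 0.544, 0.564 and 0.533 (log2 0.20).

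**Figure D5:**
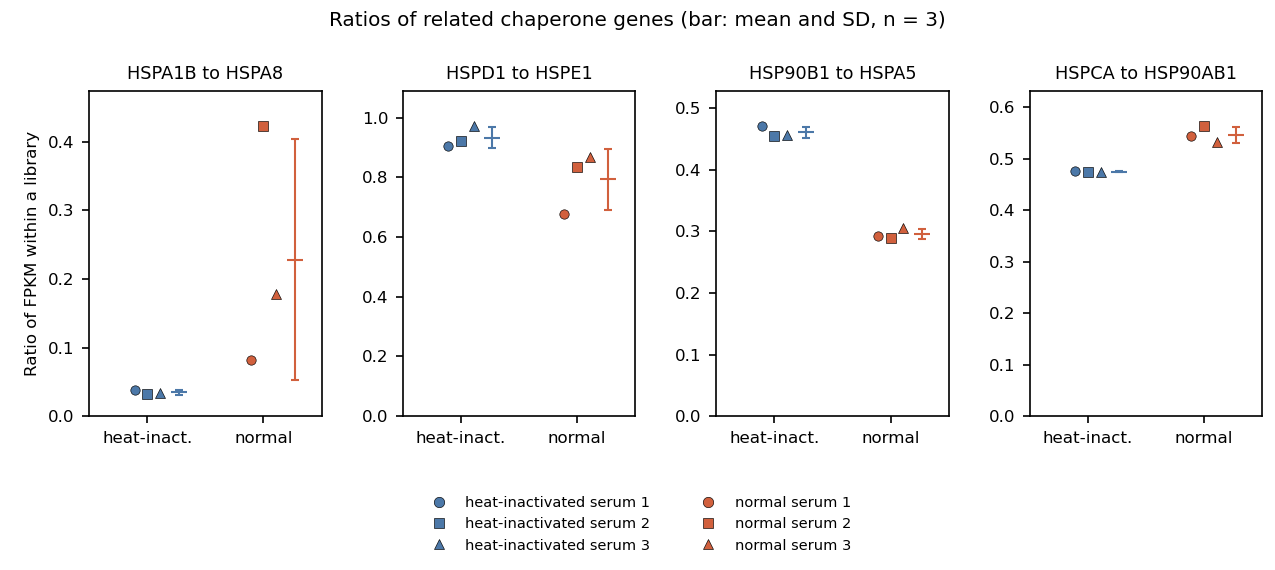
Ratio of FPKM within each library for 4 pairs of related chaperone genes (marker shape is the replicate number; bar and whisker are mean and SD, n = 3; axes start at 0). In every pair the 3 normal serum libraries lie apart from the 3 controls, with HSPA1B to HSPA8 widely spread and HSP90B1 to HSPA5 tight.

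The normal serum libraries differed among themselves in a recurring order. The range of log2(FPKM + 1) over the 3 normal serum libraries was 2.63 for HSPA1B, rank 59 of 11819 genes, and 1.09 for HSPH1, rank 178. In the controls the ranges were 0.12 and 0.19. Normal serum 2 was the highest of its group in 40 of 57 members, against 35.4% of all genes, and normal serum 2 was highest with normal serum 1 lowest in 28 members, against 20.9%. BAG3, the HSPB8 partner and an HSF1 target, was named after its values were seen, so it adds no weight to this order. BAG3 had 33.6, 36.4 and 36.0 FPKM in the controls and 55.6, 88.2 and 57.4 FPKM in normal serum. Its means were 1.90-fold apart (adjusted p = 0.00349), or 1.60-fold without normal serum 2. What set normal serum 2 apart for these genes was not tested.

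Genes that work with the members were read from 4 lists. Over all genes tested 27.8% were called higher and 26.1% lower, with a median log2 difference of 0.01. Of 17 tested partners of Hsp70 and Hsp90 with heat shock factors, 10 were higher and 2 lower (median log2 difference 0.41). CHORDC1, an Hsp90 partner, rose from 16.3 ± 0.924 to 26.5 ± 1.02 FPKM (log2 0.67, adjusted p = 2.07e-04), and FKBP4, the immunophilin of steroid receptors, from 51.9 ± 4.00 to 90.6 ± 6.39 FPKM (log2 0.79, adjusted p = 2.15e-04). FKBP5, its antagonist and a glucocorticoid target, fell from 11.5 ± 1.40 to 5.74 ± 0.922 FPKM (log2 -0.89, adjusted p = 0.00105), and ST13, which steadies Hsp70 with its client, fell from 126 ± 6.87 to 105 ± 2.21 FPKM (log2 -0.26, adjusted p = 0.00929). The heat shock factors are named outside the rule that chose the other partners. HSF1 rose from 46.3 to 61.2 FPKM (log2 0.39, adjusted p = 0.0011), a change of its mRNA, while HSF1 acts through its protein state. HSF2 averaged 8.42 and 7.33 FPKM and was not called (log2 -0.17, adjusted p = 0.123).

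Of 12 tested prefoldin and CCT partners, 8 were higher and 1 lower (median 0.34). The prefoldin genes PFDN4, from 29.1 to 48.5 FPKM (log2 0.72, adjusted p = 4.66e-04), and PFDN2, from 147 to 255 FPKM (log2 0.79, adjusted p = 5.74e-04), rose, and the tubulin cofactor TBCE fell from 17.5 to 14.5 FPKM (log2 -0.26, adjusted p = 0.0162). Of 10 mitochondrial partners 3 were higher and 1 lower (median 0.05), so the share called higher was near the 27.8% of all genes. GRPEL1, the nucleotide exchange factor of HSPA9, rose from 26.3 ± 1.44 to 63.0 ± 1.57 FPKM, more than its partner (log2 1.23, SE 0.06, adjusted p = 1.01e-05). Its relative GRPEL2 rose as well, from 8.56 to 13.4 FPKM (log2 0.57, adjusted p = 0.00951). HSCB, the J protein of iron-sulfur cluster assembly, fell from 30.0 to 21.4 FPKM (log2 -0.47, adjusted p = 0.00209).

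Of 16 endoplasmic reticulum partners 8 were higher and 2 lower (median 0.18). Most of these 16 averaged at least 50 FPKM, where 47.5% of all genes were called higher and 14.7% lower. MANF, a secreted BiP partner, rose from 186 ± 19.6 to 354 ± 27.5 FPKM (log2 0.93, adjusted p = 2.11e-04), and HYOU1 (GRP170), which resets BiP, from 74.0 to 121 FPKM (log2 0.70, adjusted p = 5.04e-04). SEL1L and HERPUD1, both of the machinery that degrades misfolded proteins, fell, from 34.0 to 18.6 FPKM (log2 -0.84, adjusted p = 3.52e-04) and from 48.1 to 37.4 FPKM (log2 -0.35, adjusted p = 0.00371).

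The 14 members below the level tested were HSPA1L, HSPA12B, HSPB3, HSPB7, DNAJB7, DNAJA4, DNAJB12, DNAJC15, DNAJC5B, DNAJA2, DNAJB1, DNAJB13, DNAJB8 and DNAJC5G. The last 5 are listed at 0 in every library. DNAJB1 (Hsp40), the textbook heat-inducible J protein, is among them, and a value of 0 in this table can be a failed estimate, so nothing is read from it. A gene with the DNAJA2 identifier but no symbol averaged 20.9 ± 1.10 and 31.0 ± 1.83 FPKM (log2 0.54, adjusted p = 6.3e-04), so the 0 listed under the symbol DNAJA2 is not read as the level of the gene. HSPB3 was at 0 in the controls and at 0.117, 0.234 and 0.298 FPKM in normal serum, and DNAJC15 at 0.295, 0.199 and 0.152 FPKM in the controls and at 0 in normal serum.

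The authors' deposited table tests each transcript with Cuffdiff. Of the 136 member transcripts 85 were tested with status OK, and of these the authors' deposited table has 32 higher and 10 lower at a q-value under 0.05. The limit of 0.05 was set here. The authors' own marks cover fold change, q-value and FPKM, and their q-value mark is stricter. HSPA12A, with a Cuffdiff q-value of 0.0017, did not pass it. All of the authors' marks in the deposited table were passed by 5 transcripts, which belong to HSPA1B, HSPH1 and HSPB8. The shares over all transcripts are not given here, so these counts are not set against a background and say nothing particular about the members. DNAJA1 was given the status LOWDATA for its main transcript in the authors' deposited table, so that table holds no test of that transcript. Its other transcript was tested by the authors and did not pass (log2 fold 0.394, Cuffdiff q-value 0.153).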

How the data were processed

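Polyadenylated RNA of 6 libraries was sequenced, 3 per serum, grouped and numbered as labelled. The submitters' processing notes name Cuffdiff 2.1.1, Cufflinks 2.1.1 and TopHat2 2.0.7. The build is not given in the sources here. The authors deposited FPKM for 44605 transcripts, 37.0% of them at 0 in every library, along with the authors' own test of each (log2 fold, q-value and p-value). Fragment counts are not in this table, so the depth behind each value is unknown and no count model was used.

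FPKM values were summed per symbol, which merges isoforms and cannot separate near-identical or overlapping genes. limma 3.58.1 in R 4.3.3 fitted log2(FPKM + 1) where a gene averaged 1 FPKM or more, using trended empirical Bayes variances, with Benjamini-Hochberg adjustment over all genes. On this scale the change of a low gene is understated. The code was tested on simulated data, where false calls somewhat exceeded the nominal share, so calls near the threshold call for caution. The simulation changed far fewer genes than were called here, so it does not give the share of false calls in these data. Figures were drawn with matplotlib 3.10.9. Compartments came from textbook knowledge. Members and lists were chosen with earlier results of these data known. Every member could be named. Values per library are given for the 4 most abundant and the 3 most changed called genes of each group, all 8 chaperonin subunits and the ratio genes. Of each partner list the 2 called genes with the smallest adjusted p in each direction are named, with group means. HSF1, HSF2 and BAG3 are named outside this rule. A planned ratio of HSPA1A plus HSPA1B to HSPA8 used HSPA1B alone, and HSPCA stood in for HSP90AA1. Of the list names, 18 were not found by symbol and are not analysed here. The alternatives tried were other pseudocounts, filters, scalings, transcript choices, variance models, replicate terms and leaving out each library.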

Additional observations from a re-analysis of the deposited data

How the results depend on the processing

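Of the 36 member calls, 23 (19 higher, 4 lower) held in every alternative that tested the gene (21, or 20 for DNAJC22, which is under the filter of 5 FPKM), among them HSPA8, HSPA1B, HSPH1, HSP90AB1, HSPB8, DNAJA1, HSPA5, HSPE1, TCP1, CCT2, CCT4, CCT5, CCT7 and CCT8, and the lower DNAJC10, DNAJC13, DNAJC18 and DNAJC22. The lower count was 4 with a mean of at least 5 FPKM and 5 with replicates 2 and 3 alone. A replicate block gave 32 members higher and 9 lower, as did a term for replicate 1, each adding DNAJC7, DNAJC17, HSP90B1, DNAJB9 and DNAJC3 to the higher genes. Same-numbered libraries correlated at 0.193, 0.0328 and 0.00689 in their deviations, not every library correlated best with its own number, and the numbers are not taken to pair the libraries. Leaving out 1 library gave 23 to 31 higher and 7 to 10 lower.

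In the order rescaled total, rescaled total over transcripts of at least 300 bases and quantile normalization, the median log2 differences were 0.483, 0.456 and 0.385 for cytosolic Hsp70, 0.420, 0.392 and 0.333 for Hsp90, -0.146, -0.172 and -0.0651 for the endoplasmic reticulum, 0.203, 0.175 and 0.0663 for mitochondria and 0.431, 0.404 and 0.303 for CCT, and with the first 2 they were -0.513 and -0.540 for the vesicle group. With no filter on low values they were 0.457 for Hsp70, 0.0369 for the endoplasmic reticulum, 0.229 for mitochondria and -0.172 for the vesicle group. The endoplasmic reticulum median was 0.0369 with a mean of at least 5 FPKM, 0.0402 with the highest transcript per gene, 0.00617 with replicates 2 and 3 alone and 0.0296 with a length trend removed (an alternative chosen after seeing the data), which put the vesicle group at -0.272. The highest transcript gave 0.468 for CCT. The HSPCA to HSP90AB1 log2 ratio was 0.159 with quantile normalization and 0.166 with the highest transcript.

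Leaving out 1 library, the medians ranged from 0.546 to 0.595 (CCT), 0.284 to 0.491 (cytosolic J), 0.551 to 0.687 (Hsp70), 0.486 to 0.632 (Hsp90), -0.0466 to 0.0271 (endoplasmic reticulum), 0.253 to 0.429 (mitochondria), -0.0424 to 0.0975 (small heat shock) and -0.425 to -0.291 (vesicle), and the log2 ratios from -0.663 to -0.625 (HSP90B1 to HSPA5), 1.81 to 2.99 (HSPA1B to HSPA8), 0.179 to 0.220 (HSPCA to HSP90AB1) and -0.309 to -0.130 (HSPD1 to HSPE1).

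Reversed signs were found only among uncalled genes. They were HSPB1 (-0.138, -0.166, -0.205 with the 3 scalings, -0.0196 with replicates 2 and 3, -0.0401 with the length trend), HSPB6 (-0.110, -0.134, -0.0160 with replicates 2 and 3), DNAJB5 (-0.0951, -0.118), DNAJC1 (-0.0995, -0.126), DNAJC19 (-0.0310, -0.0581, -0.0608), DNAJC28 (0.0179, quantile), DNAJC6 (-0.0140, -0.0322, and -0.0911 with the highest transcript), HSP90B1 (-0.0130, -0.0890) and HSPA13 (0.0186, length trend). Leaving out 1 library, the log2 differences ranged over 0 for HSPB1 (-0.0728 to 0.145), HSPB6 (-0.0316 to 0.0502), DNAJB5 (-0.0253 to 0.0806), HSPA13 (-0.138 to 0.0366), DNAJC1 (-0.0472 to 0.113) and DNAJC30 (-0.320 to 0.0840). The cause was not tested.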
